A study of Homo sapiens with 4 samples.

Results

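The genes described here are 8 members of the cellular stress response, ATF3, ATF4, DDIT3, DDIT4, STC2, TRIB3, CHAC1 and PPP1R15A, out of 9193 genes measured in LAPC4 cells. LAPC4 is an androgen-sensitive human prostate cancer cell line. ATF3, DDIT4 and STC2 were chosen by their measured signals, which were higher after androgen ablation alone (control cells in CSS over control cells in FCS), and the other 5 are further genes of the same response. The 8 genes were read by 10 probe sets, all of which passed the filter on low signal. Cells were infected with a lentivirus that carried an shRNA against both β-TrCP genes (BTRC and FBXW11), or with a control vector that the labels give as expressing GFP. They were kept for 72 h in 10% charcoal-stripped serum (CSS), which lacks androgens, or in 10% fetal calf serum (FCS) with 100 pM of the synthetic androgen methyltrienolone. The 4 conditions were shRNA in CSS, shRNA in FCS, control in CSS and control in FCS, each measured on 1 Affymetrix U133 array. A single shRNA sequence was used, and according to the study's methods its expression was switched on by doxycycline. Effects of the shRNA, of doxycycline and of the vector cannot be told apart here.

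When protein folding fails in the endoplasmic reticulum (ER), amino acids run short or heme is lacking, kinases phosphorylate the translation factor eIF2. Most protein synthesis then slows, while ATF4 mRNA is translated more efficiently. ATF4, a transcription factor, induces ATF3 and DDIT3 (CHOP), which are transcription factors themselves, together with TRIB3, CHAC1 and DDIT4. PPP1R15A (GADD34) directs a phosphatase to eIF2 and so ends the response. DDIT4 (REDD1) inhibits the growth-promoting kinase complex mTORC1, CHAC1 degrades glutathione, TRIB3 is a pseudokinase that restrains ATF4 and CHOP, and STC2 is a secreted glycoprotein induced by ER stress and hypoxia. β-TrCP, the substrate receptor of a ubiquitin ligase, is known to mark ATF4 protein for degradation, a step that mRNA levels do not report.

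The promoters show the sequence elements through which such genes can be read out. RefSeq (GRCh38.p14) gave 13 windows for the 8 genes, each of 300 bases running from 250 before to 50 after a transcription start, and 4 motifs were searched on both strands: the C/EBP-ATF element TGATGNAA bound by ATF4 with C/EBP partners, the cyclic AMP response element TGACGTCA, the hypoxia response core ACGTG, and the AP-1 element TGANTCA. None of the 4 motifs contains another, although ACGTG and its reverse complement can overlap. The sequences of the 4 genes that were higher under CSS are printed first, and that of PPP1R15A follows as a contrast with a different element. Capitals mark the motif matches, and each sequence reads 5′ to 3′ along the strand of its gene.
ATF3, chr1:212565157-212565456, plus strand: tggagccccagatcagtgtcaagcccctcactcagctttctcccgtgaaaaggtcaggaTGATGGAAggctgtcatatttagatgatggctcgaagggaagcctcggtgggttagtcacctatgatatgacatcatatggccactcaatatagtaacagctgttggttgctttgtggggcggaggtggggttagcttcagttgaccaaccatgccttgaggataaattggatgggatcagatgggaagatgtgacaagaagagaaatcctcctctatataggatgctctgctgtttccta
DDIT4, chr10:72273674-72273973, plus strand: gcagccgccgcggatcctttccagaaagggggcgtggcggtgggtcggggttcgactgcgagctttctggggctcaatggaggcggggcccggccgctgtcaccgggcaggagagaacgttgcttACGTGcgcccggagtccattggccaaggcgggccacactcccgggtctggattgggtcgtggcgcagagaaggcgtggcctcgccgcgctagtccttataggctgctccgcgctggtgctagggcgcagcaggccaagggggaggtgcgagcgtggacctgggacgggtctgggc
STC2, chr5:173328365-173328664, minus strand: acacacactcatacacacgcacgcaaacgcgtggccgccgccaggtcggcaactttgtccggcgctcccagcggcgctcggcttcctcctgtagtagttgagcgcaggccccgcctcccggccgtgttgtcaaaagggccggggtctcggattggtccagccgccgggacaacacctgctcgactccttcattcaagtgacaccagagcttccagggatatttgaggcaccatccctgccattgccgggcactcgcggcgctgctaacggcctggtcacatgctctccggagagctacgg
CHAC1, chr15:40953221-40953520, plus strand: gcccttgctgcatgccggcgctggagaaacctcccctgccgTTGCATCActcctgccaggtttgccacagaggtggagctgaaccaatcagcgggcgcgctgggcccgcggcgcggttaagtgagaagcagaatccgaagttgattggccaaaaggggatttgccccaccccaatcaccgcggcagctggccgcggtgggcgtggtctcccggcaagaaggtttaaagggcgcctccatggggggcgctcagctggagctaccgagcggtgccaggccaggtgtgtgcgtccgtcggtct
PPP1R15A, chr19:48872171-48872470, plus strand: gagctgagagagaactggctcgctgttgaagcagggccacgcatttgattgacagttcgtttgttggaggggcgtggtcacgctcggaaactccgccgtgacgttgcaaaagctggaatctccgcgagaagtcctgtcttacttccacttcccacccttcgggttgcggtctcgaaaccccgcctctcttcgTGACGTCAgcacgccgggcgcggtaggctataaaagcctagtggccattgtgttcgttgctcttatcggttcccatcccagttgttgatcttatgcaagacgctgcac
ATF3 held 1 C/EBP-ATF match, at -191 from the transcription start, in this window and none in its other window. CHAC1 held 1 on the opposite strand at -209. That element occurred in 3.62% of 35116 RefSeq promoter windows. The full cyclic AMP element of PPP1R15A, at -58, was rarer, at 1.85% of windows. DDIT4 held the hypoxia core at -125, which 21.4% of windows share, so its presence is common. Among members not printed, ATF4 held the same core on both strands as the overlapping palindrome CACGTG, and DDIT3 held an AP-1 element, found in 7.71% of windows. STC2 and TRIB3 held none of these letters in their windows.

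The shRNA target FBXW11 had a normalized log2 signal of 4.68 with shRNA in CSS and 5.02 with shRNA in FCS, against 8.19 in control cells in CSS and 8.02 in control cells in FCS. BTRC was at the floor of 20 units (4.32 on the log2 scale) on both shRNA arrays, and had 4.64 in control cells in CSS and 4.50 in control cells in FCS. The shRNA-in-CSS array stood apart from the rest. Over probe sets its correlation with the other 3 arrays was 0.934 to 0.935, against 0.979 to 0.989 among those 3, and its deposited log2 values had an interquartile range of 2.07 against 2.69 to 2.74. Without quantile normalization the median change of all genes became -0.16 in shRNA in CSS over control in FCS, -0.19 in CSS over FCS in shRNA cells and -0.20 in shRNA over control in CSS, against 0.03, 0.03 and 0.01 with it. Values as deposited are given for members and lists in these 3 comparisons and are to be read against those shifts. Of the 7 prostate luminal markers 5 were measured, with summed log2 signals of 12.1 to 12.6. Of 7 fibroblast markers 5 were measured, summing to 7.47 on the shRNA-in-CSS array against 6.82 to 6.89 on the others, of 7 leukocyte markers 2 were measured (5.69 on that array against 5.32), and of 4 endothelial markers 1 was measured, at the floor throughout. Whether other cells had a part in any result was not tested.

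ATF3, DDIT4, STC2 and CHAC1 had their lowest signal in untreated control cells, and every treatment gave higher values. ATF3 had a normalized log2 signal of 8.24 with shRNA in CSS, 8.76 with shRNA in FCS and 8.63 in control cells in CSS, against 7.44 in control cells in FCS. DDIT4 had 8.65 with shRNA in CSS, 8.98 with shRNA in FCS and 8.72 in control cells in CSS, against 7.58 in control cells in FCS. These patterns were nearly the same: the combined treatment sat below the shRNA alone for both genes. STC2, read by its brighter probe set, had 8.02 with shRNA in CSS, 7.75 with shRNA in FCS and 8.63 in control cells in CSS, against 7.04 in control cells in FCS. Here CSS alone gave the highest value. CHAC1, at a lower signal, had 6.87 with shRNA in CSS, 6.88 with shRNA in FCS and 6.66 in control cells in CSS, against 5.60 in control cells in FCS, so its 3 treated arrays lay close together. The second STC2 probe set was dimmer, with 6.44 with shRNA in CSS, 6.67 with shRNA in FCS and 6.48 in control cells in CSS, against 5.97 in control cells in FCS. It kept the lowest place of the FCS control but not the high value in CSS.

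**Figure D1:**
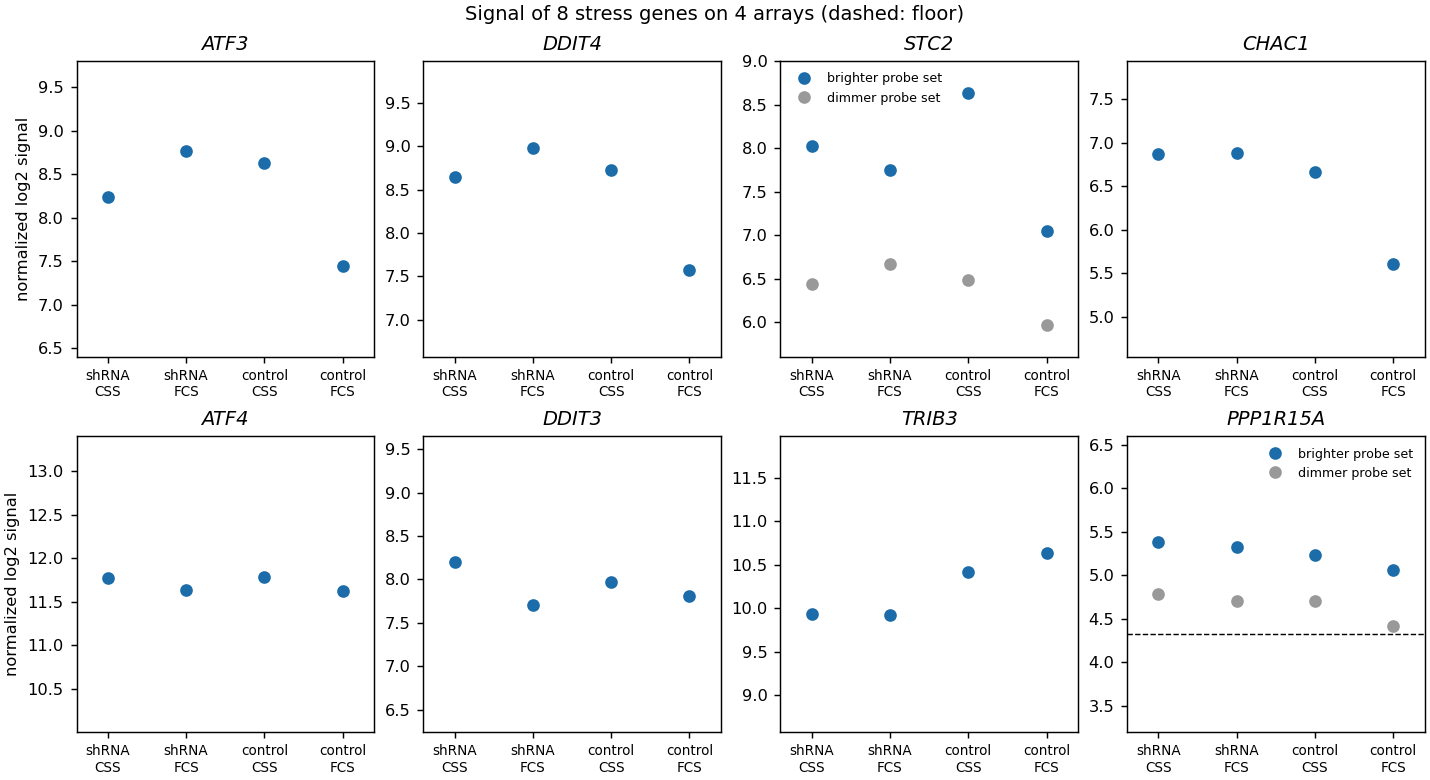
Normalized log2 signal (vertical axis, 1 panel per gene, each spanning the same number of log2 units) on the 4 arrays (horizontal axis: shRNA in CSS, shRNA in FCS, control in CSS, control in FCS), 1 point per array, grey points being a second probe set and the dashed line the floor at 4.32. ATF3, DDIT4, STC2 and CHAC1 are lowest in the FCS control, TRIB3 is lowest on the shRNA arrays, and ATF4 lies between 11.62 and 11.79.

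Because each condition has 1 array, the changes between arrays have no test. Each is given with a local spread, a robust SD (scaled median absolute deviation) of the changes in 1000 probe sets of similar signal, and with its rank among all genes above the floor on either array. In control cells, CSS over FCS chose ATF3, DDIT4 and STC2, so its values are a description. STC2 was 3.01-fold higher in CSS (log2 change 1.59, local spread 0.31, rank 2 of 7994 genes). ATF3 was 2.29-fold higher (1.19, spread 0.32, rank 5) and DDIT4 2.21-fold higher (1.14, spread 0.33, rank 6). CHAC1, which was not one of the 3 chosen genes, was 2.08-fold higher (1.06, spread 0.27, rank 11). These 4 of 8 members were at least 2-fold higher, where 13 of all genes, 0.163%, were; since the choice used this contrast nothing is read from that count. No member was 2-fold lower, where 0.138% of genes were. The 4 were followed by a gap, with CHAC1 just inside 2-fold and the next member, ATF4, at 0.17. For STC2 the dimmer probe set gave 0.51 in place of 1.59.

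The shRNA in FCS gave a similar set of higher genes. DDIT4 was 2.63-fold higher with shRNA than in control cells (log2 change 1.40, spread 0.33, rank 29 of 7991), ATF3 2.50-fold (1.32, spread 0.35, rank 31) and CHAC1 2.42-fold (1.27, spread 0.32, rank 36). Thus 3 of 8 members were at least 2-fold higher, where 64 genes, 0.801% of all, were. STC2 was 1.63-fold higher (0.70, spread 0.33, rank 167), less than with CSS, and both of its probe sets gave 0.70. This comparison shares the FCS control array with the one that chose the genes, so a low reading on that array would raise a gene in both, and the 2 comparisons are not independent.

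Both treatments together did not add up. With shRNA in CSS over control cells in FCS, CHAC1 was 2.41-fold higher (log2 change 1.27, spread 0.75), DDIT4 was at a log2 change of 1.07 (spread 0.42), STC2 was 1.97-fold higher (0.98, spread 0.48) and ATF3 1.74-fold (0.80, spread 0.46). So 2 of 8 members were at least 2-fold higher, and 0 were 2-fold lower, where 7.92% and 6.91% of all genes were, on an array with wider spreads throughout. As deposited, without quantile normalization, the same changes were 0.80 for CHAC1, 0.66 for DDIT4, 0.48 for STC2 and 0.34 for ATF3, none of them reaching 2-fold, with 379 of all genes at least 2-fold higher and 1094 lower. The sums of the changes under each single treatment were larger, 2.54 for DDIT4, 2.52 for ATF3, 2.33 for CHAC1 and 2.29 for STC2. The combined change therefore fell short of the sum by 1.72 log2 units for ATF3 (departure -1.72), by 1.47 for DDIT4 (-1.47), by 1.31 for STC2 (-1.31) and by 1.06 for CHAC1 (-1.06). As deposited the departures were -2.13 for ATF3, -1.80 for DDIT4, -1.77 for STC2 and -1.69 for CHAC1. These values for STC2 come from its brighter probe set. The dimmer one was at 0.47 with both treatments, 0.51 with CSS alone and 0.70 with the shRNA alone. Of all genes above the floor on every array, 6.21% departed by -1 or lower after quantile normalization. The departure subtracts the change under CSS alone, by which ATF3, DDIT4 and STC2 were chosen, and choosing high values there favours negative departures, so these are a description.

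The departures share the FCS control array with every change they are built from. Among the 8 members, 6 had their lowest signal on that array, a place that the choice of genes higher in CSS than in FCS favoured for ATF3, DDIT4 and STC2, so nothing is read from that count. Its distance below the next lowest array was 1.07 for DDIT4, 1.06 for CHAC1, 0.80 for ATF3 and 0.70 for STC2. The other 3 arrays spanned 0.33 for DDIT4, 0.22 for CHAC1, 0.52 for ATF3 and 0.89 for STC2, so for DDIT4, CHAC1 and ATF3 most of the range came from one array. A low reading of that array alone and a response to each treatment cannot be told apart with 1 array per condition.

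Comparisons that leave the FCS control out showed no such increase. Both set the shRNA-in-CSS array, which stood apart from the rest, over another array. A low reading of that array and the absence of a response cannot be told apart here. In shRNA cells, CSS over FCS uses the 2 arrays that played no part in the choice of genes, and there ATF3 was lower in CSS (log2 change -0.52, spread 0.37), DDIT4 was slightly lower (-0.33, spread 0.33), CHAC1 was level (-0.01, spread 0.60) and STC2 slightly higher (0.28, spread 0.42). Of the 8 members 5 were higher and 3 lower, and their median was 0.03, the same as that of all genes. At least 2-fold higher were 0 members, where 7.87% of genes were, and at least 2-fold lower 0, where 6.63% were. As deposited, the 4 changes were -0.97 for ATF3, -0.71 for DDIT4, -0.22 for STC2 and -0.55 for CHAC1, with 383 of all genes at least 2-fold higher and 1099 lower. With shRNA over control in CSS, which shares the CSS control with the choice, STC2 was lower (-0.61, spread 0.36), ATF3 was lower (-0.40, spread 0.36), and DDIT4 (-0.07, spread 0.34) and CHAC1 (0.21, spread 0.58) lay within their spreads. Again 0 members were at least 2-fold higher, where 7.73% of genes were, and 0 at least 2-fold lower, where 6.72% were. As deposited, STC2 was at -1.07 and so past 2-fold lower, ATF3 at -0.82, DDIT4 at -0.44, beyond its spread, and CHAC1 at -0.34 with its sign turned, while 380 of all genes were at least 2-fold higher and 1097 lower. After quantile normalization the dimmer STC2 probe set was at -0.23 with CSS in shRNA cells and -0.04 with shRNA in CSS.

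**Figure D2:**
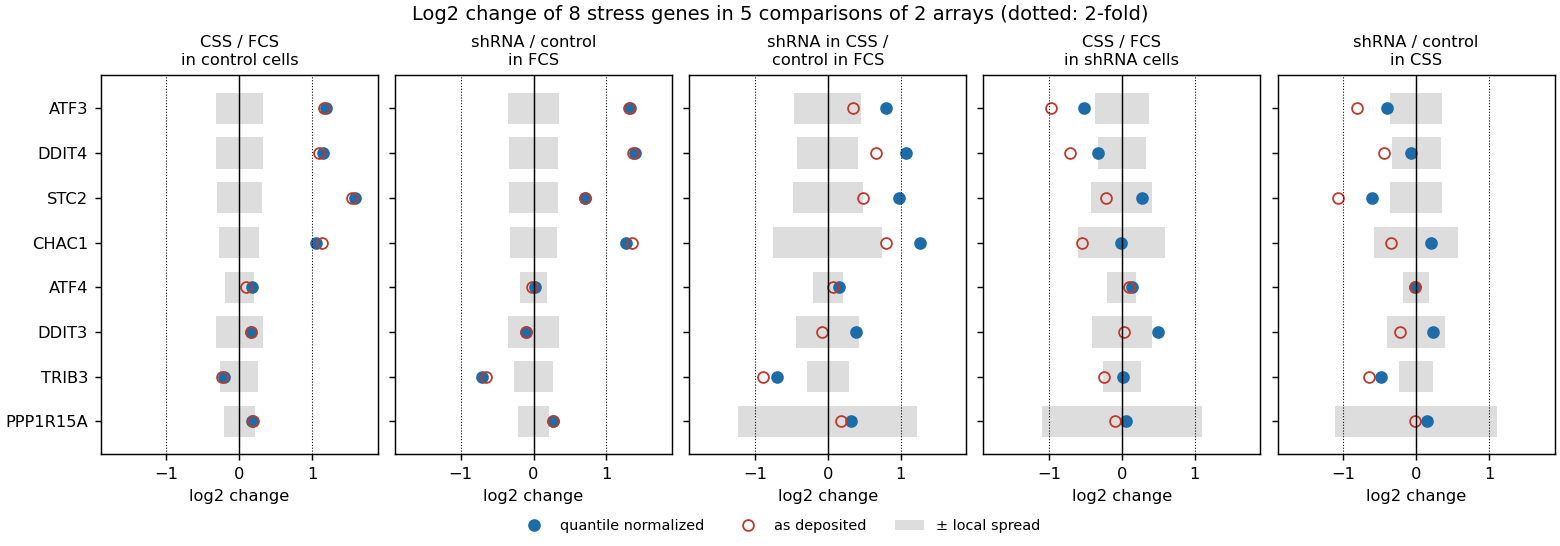
Log2 change of the 8 genes (rows) in 5 comparisons of 2 arrays (panels; horizontal axis in log2 units, dotted lines at 2-fold), from normalized values (filled) and from values as deposited (open), with the local spread as a grey band. ATF3, DDIT4, STC2 and CHAC1 lie to the right in the 3 comparisons over the FCS control and not in the other 2. Those 2 both set the shRNA-in-CSS array over another.

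**Figure D3:**
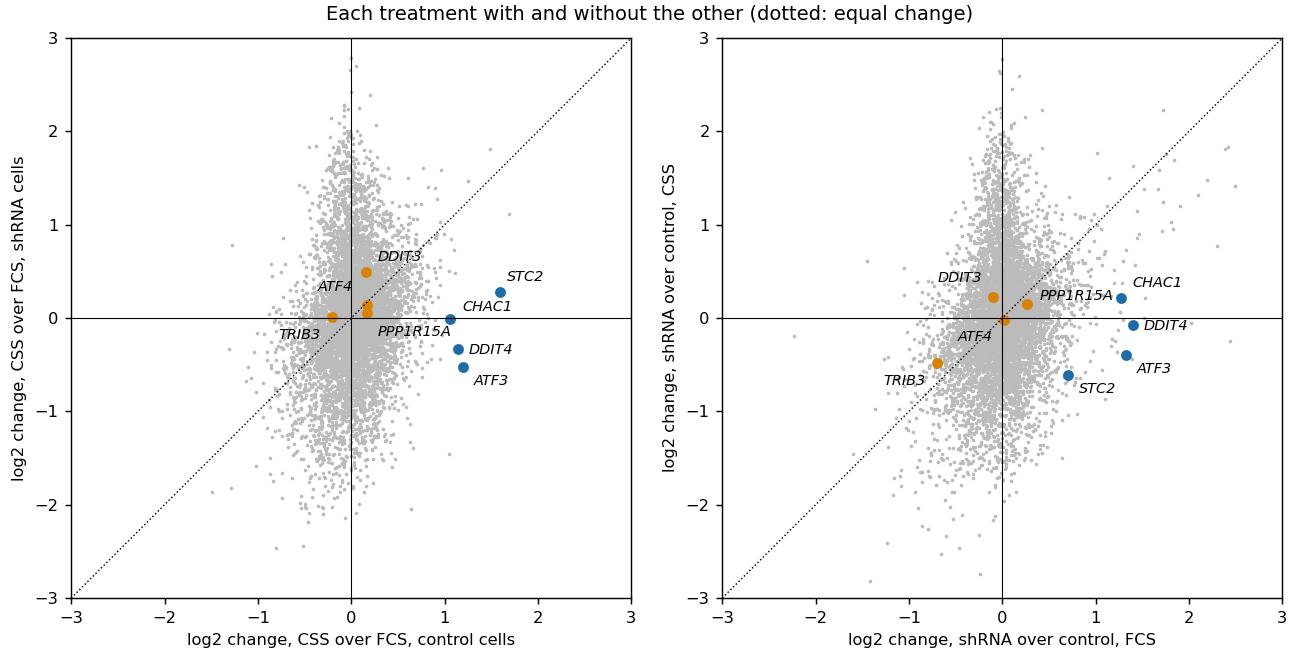
Each gene above the floor on all arrays (6974 genes, grey; FBXW11 falls outside the right panel) by its log2 change under one treatment without (horizontal axis) and with (vertical axis) the other treatment, CSS over FCS on the left and shRNA over control on the right, the dotted line marking equal change. ATF3, DDIT4, STC2 and CHAC1 (blue) lie to the right and near or below 0 vertically, while the other 4 genes (orange) are near the dotted line.

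ATF4, the regulator upstream of the set, differed little between arrays at the mRNA level after quantile normalization. It had 11.77 with shRNA in CSS, 11.64 with shRNA in FCS and 11.79 in control cells in CSS, against 11.62 in control cells in FCS, all changes lying within 0.17 log2 units of 0. With the arrays set to a common median, it was at 0.36 with both treatments over the FCS control, 0.37 with CSS in shRNA cells and 0.29 with shRNA in CSS. Each was beyond the spread of 0.17 to 0.20 that was taken from quantile-normalized values. In that setting the medians of all genes were 0.11, 0.07 and 0.08 in that order. As deposited, ATF4 was at 0.08, 0.10 and -0.01, so its value depended on the scaling of the arrays. DDIT3, which encodes CHOP, had 8.19 with shRNA in CSS, 7.70 with shRNA in FCS and 7.97 in control cells in CSS, against 7.80 in control cells in FCS. Its one change beyond the local spread was CSS over FCS in shRNA cells (0.49, spread 0.41), which became 0.03 as deposited. PPP1R15A was dim, with 5.38 with shRNA in CSS, 5.33 with shRNA in FCS and 5.23 in control cells in CSS, against 5.07 in control cells in FCS. Its second probe set had 4.79 with shRNA in CSS, 4.71 with shRNA in FCS and 4.70 in control cells in CSS, against 4.42 in control cells in FCS, close to the floor. Both probe sets had the same order of arrays, with changes of at most 0.37.

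TRIB3 went the other way from the 4 genes above. It had 9.94 with shRNA in CSS and 9.93 with shRNA in FCS, against 10.42 in control cells in CSS and 10.63 in control cells in FCS. With shRNA it was 1.63-fold lower in FCS (log2 change -0.70, spread 0.26) and lower in CSS (-0.48, spread 0.24; -0.65 as deposited). CSS over FCS changed it little, by -0.21 in control cells and by 0.01 in shRNA cells (-0.24 as deposited).

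The effect of the shRNA over both sera was tested by limma, with the serum as a second term and 1 residual degree of freedom. The serum effect of the same fit holds the contrast that chose the genes and is given without a p: 0.93 for STC2, 0.52 for CHAC1, 0.41 for DDIT4 and 0.33 for ATF3. TRIB3 fell by 0.59 on the log2 scale (SE 0.096, limma adjusted p = 1.32e-07 over 8855 genes), on both sera. DDIT4 rose by 0.66 (SE 0.15, limma adjusted p = 0.000649). Thus 1 of 8 members was called higher, where 1.57% of genes were, and 1 lower, where 2.33% were. The standard errors come from the trend of the variance on signal. In this fit limma put all weight on that trend and none on a gene's own residual. The p-values here and for the lists below therefore rest on variance pooled over genes, not on replicate arrays. The gene's own residual, with 1 degree of freedom, gave 0.109 for TRIB3 but 0.74 for DDIT4, more than its effect. DDIT4 was higher with shRNA in FCS and slightly lower in CSS. ATF3 (0.46, SE 0.16, limma adjusted p = 0.0859) and CHAC1 (0.74, SE 0.40, limma adjusted p = 0.448) did not pass the threshold, and STC2 had an effect of 0.05 (limma adjusted p = 0.978). The effects of ATF4, DDIT3 and PPP1R15A were at most 0.21 with limma adjusted p of 0.952 or more. Without the variance trend limma called 0 genes, with 386 at an unadjusted p under 0.05, and the adjusted p was 0.734 for both DDIT4 and TRIB3. As deposited, TRIB3 kept its call (-0.65, limma adjusted p = 0.00355) and DDIT4 did not (0.47, limma adjusted p = 0.794). With the arrays set to a common median both lost it (limma adjusted p = 0.0628 for TRIB3 and 0.0716 for DDIT4).

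Paralogs of the members were looked at next. STC1, the paralog of STC2, was at the floor on both control arrays, with 4.98 with shRNA in CSS and 4.90 with shRNA in FCS. TRIB1, a pseudokinase related to TRIB3, was, unlike TRIB3, lowest in the FCS control: it had 6.95 with shRNA in CSS, 7.25 with shRNA in FCS and 7.03 in control cells in CSS, against 6.48 in control cells in FCS. Its changes over the FCS control were 0.47 (spread 0.63, so within it), 0.77 (spread 0.29) and 0.55 (spread 0.29) in that order. TRIB2 was lower on the shRNA-in-CSS array, at 5.25, against 6.34 with shRNA in FCS, 6.31 in control cells in CSS and 6.15 in control cells in FCS. Its changes to that array were -1.10 (spread 0.84), -1.06 (spread 0.86) and -0.90 (spread 0.90) in that order. ATF5, a transcription factor close to ATF4, had 5.80 with shRNA in CSS, 5.03 with shRNA in FCS and 5.09 in control cells in CSS, against 5.12 in control cells in FCS. Its change with both treatments over the FCS control, 0.68, lay within its spread of 1.05.

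By distance over the 4 arrays after centring each gene, the closest gene to ATF3 was DDIT4 (0.244) and the closest to DDIT4 was ATF3, followed by CHAC1 (0.249). The next for ATF3 were ALDOC (0.364), a glycolytic aldolase, SFRP1 (0.415), a secreted Wnt antagonist, NFIL3 (0.438), a bZIP transcription factor, and CHAC1 (0.470). For DDIT4 they were ALDOC (0.322), PALLD (0.346) and DDAH1 (0.351). STC2 had no neighbour as close, the nearest being RETREG1 (0.514), ACP6 (0.529), CKAP4 (0.544), MYL6B (0.547) and HOOK2 (0.555). With Pearson correlation over the 4 arrays in place of distance, 0 of these 5 were among the 5 most alike for any of the 3 genes. Both control arrays enter the distance, and their contrast chose ATF3, DDIT4 and STC2. That choice favours nearness among the 3 genes, so the distances are a description.

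Other targets of ATF4 were mostly higher in CSS in control cells, by less than the 4 members that passed 2-fold. Of 31 listed targets 26 were measured, and in control cells 23 were higher and 3 lower in CSS, 0 of them by 2-fold, with a median log2 change of 0.32 against 0.02 for all genes. SLC7A1 (0.78) and SLC7A5 (0.76), amino acid transporters, and ASNS (0.72), asparagine synthetase, had the largest values. With shRNA in FCS the list was divided, 17 higher and 9 lower (median 0.06 against 0.00), PSPH (1.29), an enzyme of serine synthesis, being higher and the cytokine GDF15 (-0.68) and the seryl-tRNA synthetase SARS1 (-0.63) lower. With both treatments over the FCS control 18 were higher and 8 lower (median 0.20; -0.05 as deposited), with CSS in shRNA cells 16 and 10 (median 0.10; -0.14 as deposited), and with shRNA in CSS 4 and 21 (median -0.21; -0.45 as deposited). Of all genes, 53.2% were higher with CSS in control cells and 49.9% with shRNA in FCS. The shares were 52.4% with both treatments, 52.0% with CSS in shRNA cells and 50.5% with shRNA in CSS. They are the background for the counts in this list and those below. The FCS control was the lowest array for 13 of 25 targets above the floor throughout, 52%, against 20.5% of all genes. Whether a low reading of that array shifted the list was not tested. By the limma test of the shRNA, SLC3A2 rose (0.40, adjusted p = 0.0144), while GDF15 (-0.86, adjusted p = 0.00205), SARS1 (-0.49), ASNS (-0.30) and WARS1 (-0.50) fell, SLC3A2 and WARS1 being named after their values were seen. Thus 1 of 26 tested rose, where 1.57% of all genes did, and 4 fell, where 2.33% did. These shares are also the background for the limma calls in the lists below.

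The ER stress genes of the IRE1 and ATF6 branches, which do not pass through eIF2, had another pattern. Of 20 listed 18 were measured, and with shRNA in FCS 15 were lower and 3 higher (median -0.37), 3 of them by at least 2-fold, where 0.4% of genes were: SDF2L1 (-1.45), CRELD2 (-1.11) and DNAJB9, just past 2-fold, all of which act on protein folding in the ER. In control cells CSS gave 12 higher and 6 lower (median 0.06), HERPUD1 being at 0.54, XBP1 at -0.23 and SDF2L1 at -1.28. With CSS in shRNA cells 16 were higher and 2 lower (median 0.43; 0.11 as deposited), with both treatments over the FCS control 7 and 11 (median -0.07; -0.41 as deposited), and with shRNA in CSS 7 and 11 (median -0.12; -0.38 as deposited). The shRNA-in-FCS array was the lowest for 15 of 17, where it was for 23.6% of all genes. By the limma test of the shRNA 0 rose, where 1.57% of genes did, and 5 of 18 fell, where 2.33% did. Those that fell were CRELD2 (-0.87, adjusted p = 9.32e-10), DNAJB9 (-0.67), HYOU1 (-0.66), PDIA6 (-0.65) and MANF (-0.49), the last 3 named after their values were seen. The SE from the gene's own residual was larger for each, at 0.33 for DNAJB9, 0.26 for MANF, 0.24 for CRELD2, 0.205 for HYOU1 and 0.13 for PDIA6. Each fell further in FCS than in CSS, MANF by -0.75 in FCS and -0.23 in CSS.

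**Figure D4:**
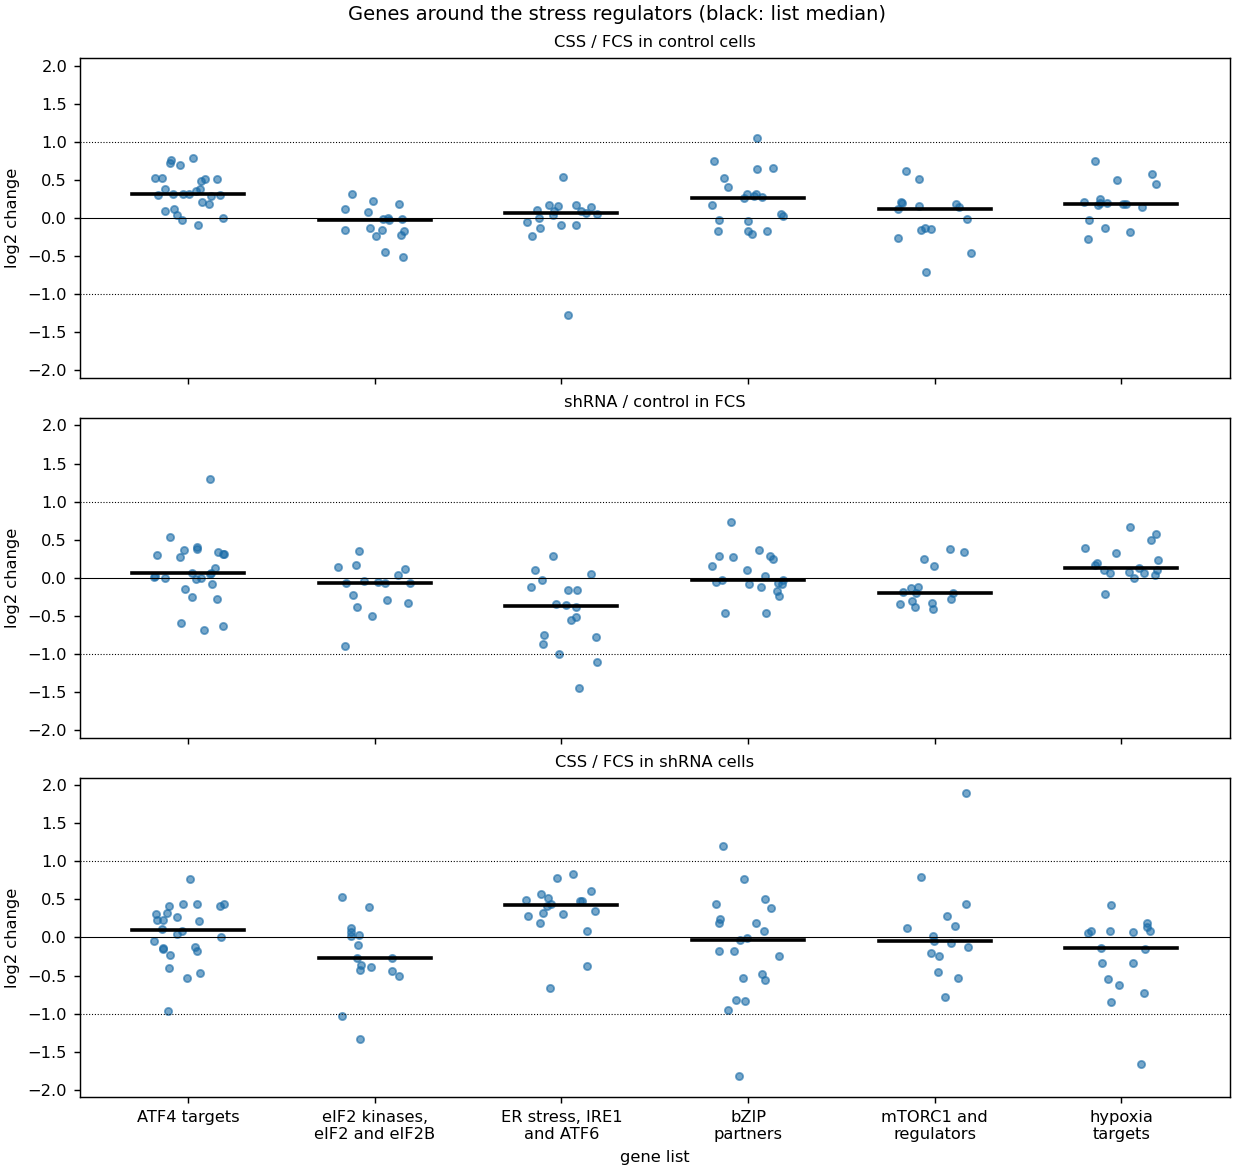
Log2 change (vertical axis) of each measured gene of 6 lists (horizontal axis, points spread sideways for view) in 3 comparisons of 2 arrays, with the list median as a black bar and dotted lines at 2-fold. The ATF4 targets sit at a median of 0.32 with CSS in control cells, and the ER stress genes at -0.37 with shRNA in FCS and 0.43 with CSS in shRNA cells.

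The eIF2 machinery had medians near 0 in the comparisons that leave out the shRNA-in-CSS array. Of 19 listed kinases, subunits and phosphatase genes 17 were measured, of which 5 were higher and 12 lower with CSS in control cells (median -0.03) and 5 and 11 with shRNA in FCS (median -0.07). EIF2AK3, which encodes the ER stress kinase PERK, was at -0.89 with shRNA in FCS, and EIF2S3 was at -0.51 with CSS. In the comparisons with the shRNA-in-CSS array the medians were -0.35 with both treatments, -0.27 with CSS in shRNA cells and -0.20 with shRNA in CSS (-0.47, -0.56 and -0.38 as deposited). In each, 2 genes were at least 2-fold lower, where 6.91%, 6.63% and 6.72% of all genes were, in that order. EIF2AK3 was at -1.41 with both treatments and -1.52 with shRNA in CSS. EIF2B3, a subunit of the exchange factor eIF2B, was at -1.54 with both treatments, -1.03 with CSS in shRNA cells and -1.08 with shRNA in CSS. EIF2AK2, which encodes the kinase PKR, was at the floor on that array, which puts its change with CSS in shRNA cells at -1.33 or lower, and it was named after its value was seen. The limma test called 0 of 17 for the shRNA. The bZIP partners of ATF3, ATF4 and CHOP, with which they form dimers, were measured for 22 of 29. With CSS in control cells 14 were higher and 6 lower (median 0.27), JUND at 1.05, NFIL3 at 0.74 and ATF2 at 0.65. With shRNA in FCS 9 were higher and 11 lower (median -0.03), NFIL3 being at 0.73, and the medians were 0.01 with both treatments, -0.03 with CSS in shRNA cells and -0.28 with shRNA in CSS (-0.24, -0.36 and -0.66 as deposited). JUND alone was called for the shRNA, lower by limma (-0.73, adjusted p = 7.80e-07), with an SE of 0.27 from its own residual against 0.12 in the fit.

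Genes of mTORC1, the complex that DDIT4 restrains, and of its upstream regulators were measured for 15 of 22. With CSS in control cells 8 were higher and 7 lower (median 0.12), PRKAA1, a catalytic subunit of AMPK, at -0.70 and DEPTOR, an mTOR inhibitor, at 0.62. With shRNA in FCS 4 were higher and 11 lower (median -0.20), and the medians were -0.19 with both treatments, -0.04 with CSS in shRNA cells and -0.31 with shRNA in CSS (-0.42, -0.39 and -0.57 as deposited). By limma, RHEB, the GTPase that activates mTORC1, rose with the shRNA (0.41, adjusted p = 0.00121) and YWHAB fell (-0.35, adjusted p = 0.0251), YWHAB being named after its value was seen. Hypoxia targets, the genes induced when oxygen is low, were measured for 17 of 20. With CSS in control cells 12 were higher and 4 lower (median 0.19), led by NDRG1 (0.75) and P4HA1 (0.58), and with shRNA in FCS 15 were higher and 2 lower (median 0.13), ADM being at 0.66. The medians were 0.06 with both treatments, -0.13 with CSS in shRNA cells and -0.27 with shRNA in CSS (-0.27, -0.43 and -0.55 as deposited, the first with its sign turned), and limma called 0 of 17 for the shRNA.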

How the data were processed

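RNA from LAPC4 cells was hybridized to 4 Affymetrix U133 arrays, 1 per condition. The authors computed signals with MAS5 (Microarray Suite), kept probe sets of at least 20 units with a present call on an array, and quantile normalized. The deposited table holds log2 values of 22277 probe sets without present calls; its columns do not share 1 distribution, so quantile normalization was repeated here. Probe sets reaching 20 units on at least 1 array were kept, control probe sets (62 in the deposited table) were dropped afterwards, and signals under 20 were set to 20. This left 15643 probe sets and, by the brightest probe set with 1 annotated gene symbol, 9193 genes (19070 probe sets have 1 symbol, 1043 several, 2164 none listed). The number of arrays limits precision: single comparisons have no test, and p-values from 1 array per condition rest on the additive model.

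The shRNA effect was fitted with limma 3.58.1 (R 4.3.3; lmFit, eBayes with trend, Benjamini-Hochberg, threshold 0.05). The remaining calculations ran in Python 3.11.15 with pandas 2.3.3 and numpy 2.4.6. Calculations were tested on simulated data. The members, the gene lists and the tests were chosen with earlier results of these data known. Named genes were the members, their paralogs, the shRNA targets, up to 3 genes per list with the largest change under CSS or under shRNA in FCS, and the 5 nearest in pattern to ATF3, DDIT4 and STC2. Alternatives were the normalization, floor, filter, probe set rule, fold threshold, variance model and measure of likeness. Per the labels the control carried a GFP vector, while the paper gives vector alone in its methods and untreated cells with the shRNA vector in its account of the arrays.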

Additional observations from a re-analysis of the deposited data

Results flagged for a closer look

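For ATF3, DDIT4 and STC2 a treatment changed the signal one way without the other treatment and the opposite way with it. Each change was past its local spread, that of DDIT4 in shRNA cells barely (-0.3297, spread 0.3296). How many of all genes reverse in this way was not counted. Departures from additivity of -1 or lower were found in 433 of 6974 genes, and of 1 or higher in 471. CSS over FCS gave -0.52 in shRNA cells and 1.19 in control cells for ATF3, a difference of -1.72 log2 units, and -0.33 in shRNA cells and 1.14 in control cells for DDIT4, a difference of -1.47. The shRNA over control gave -0.40 in CSS and 1.32 in FCS for ATF3, the same difference of -1.72, and -0.61 in CSS and 0.70 in FCS for STC2, a difference of -1.31. Those STC2 values are from its brighter probe set, and the dimmer one gave -0.04 in CSS and 0.70 in FCS. With 1 array per condition these differences were not tested, and the change under CSS alone had served to choose the 3 genes. All use the FCS control array, which was the lowest for the 3 genes, and the shRNA-in-CSS array, which stood apart from the rest.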

How the results depend on the processing

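No paired analysis was possible because each condition has 1 array and the labels give no shared replicate numbers; for the same reason no array could be left out of the limma fit. The 3 member genes chosen for CSS, and CHAC1, kept their direction over the FCS control under every alternative run. As deposited, without quantile normalization, genes at least 2-fold higher and lower numbered 379 and 1094 with both treatments over the FCS control, 383 and 1099 with CSS in shRNA cells, and 380 and 1097 with shRNA in CSS. The changes then were -0.073 for DDIT3 and 0.48 for STC2 with both treatments; -0.97 for ATF3, 0.027 for DDIT3, -0.71 for DDIT4 and -0.22 for STC2 with CSS in shRNA cells; and -0.82 for ATF3, -0.23 for DDIT3, -0.44 for DDIT4 and -1.07 for STC2 with shRNA in CSS. The shRNA effects as deposited were -0.16 for DDIT3, -0.18 for STC2 and 0.47 for DDIT4, with 11 genes called higher and 32 lower. With the arrays set to a common median instead, ATF4 was at 0.36 with both treatments, 0.37 with CSS in shRNA cells and 0.29 with shRNA in CSS; the shRNA effects were 0.14 for ATF4, -0.0074 for DDIT3, -0.025 for STC2, 0.62 for DDIT4 (limma adjusted p = 0.0716) and -0.49 for TRIB3 (limma adjusted p = 0.0628), with 67 genes called higher and 94 lower. With a floor of 100, which lies above CHAC1 in control cells in FCS, CHAC1 was at 0.014 with CSS in control cells, 0.23 with shRNA in FCS and 0.23 with both treatments, and the 2-fold counts, higher first, were 5 with CSS in control cells, 28 and 19 with shRNA in FCS, 57 and 43 with both treatments, 41 and 29 with CSS in shRNA cells, and 47 and 37 with shRNA in CSS. With a signal of at least 100 required on 1 array they were 151 and 110 with both treatments, 120 and 82 with CSS in shRNA cells, and 115 and 84 with shRNA in CSS. At 3-fold they were 2 and 0 with CSS in control cells, 19 and 3 with shRNA in FCS, 159 and 125 with both treatments, 166 and 102 with CSS in shRNA cells, and 168 and 89 with shRNA in CSS. With the mean over probe sets STC2 was at 1.05 with CSS in control cells. Without the variance trend the shRNA effects of DDIT4 (0.66) and TRIB3 (-0.59) were no longer called, and limma called 0 genes higher and 0 lower, with 386 at an unadjusted p under 0.05. The causes were not tested, apart from the floor and the stricter thresholds, which act by construction. Leaving out the floor or the filter moved changes by less than the local spread, kept the calls of members, and kept counts within 1.5 times. Normalizing without the shRNA-in-CSS array, which allows no limma fit, also kept changes within the local spread and counts within 1.5 times. This covers only the comparisons that leave that array out.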

Other observations

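Targets shared by the androgen and glucocorticoid receptors did not move as a block. Of 17 listed 14 were measured, and with CSS in control cells 8 were higher and 6 lower (median log2 change 0.13 against 0.02 for all genes). The metallothioneins MT2A (-1.13) and MT1X (-0.82) and the chaperone partner FKBP5 (-0.88) were lower in CSS, while the kallikreins KLK3 (0.73) and KLK2 (0.70), androgen-induced secreted proteases, were higher. With shRNA in FCS 7 were higher and 7 lower (median -0.10), KLK2 being at -1.23, KLK3 at -0.98 and FKBP5 at -0.80. The medians were -0.52 with both treatments over the FCS control, -0.17 with CSS in shRNA cells and -0.37 with shRNA in CSS (-0.97, -0.68 and -0.79 as deposited). By limma, KLK2 fell by 1.82 with the shRNA (adjusted p = 4.37e-16), KLK3 by 1.18 (adjusted p = 4.54e-15) and SGK1 by 0.99 (adjusted p = 0.0189), SGK1 being named after its value was seen. The SE from the gene's own residual was larger for each, at 0.59 for KLK2, 0.20 for KLK3 and 0.68 for SGK1. With the shRNA SGK1 was at -0.32 in FCS and -1.67 in CSS.

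Of 16 genes of the p53 response and growth arrest 10 were measured. PMAIP1, which encodes the pro-death protein NOXA, was 5.42-fold higher with shRNA in FCS (log2 change 2.44) and was at 0.64 with CSS in control cells, 0.39 with both treatments over the FCS control and -2.04 with CSS in shRNA cells. The list medians were 0.07 with CSS in control cells, 0.11 with shRNA in FCS, 0.36 with both treatments, 0.06 with CSS in shRNA cells and -0.13 with shRNA in CSS (0.14, -0.04 and -0.11 as deposited for the last 3), and limma called 0 of 9 tested for the shRNA.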
